A study of Homo sapiens with 2 samples.

Results

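The genes under the strongest PML-RARA antibody peaks of NB4 cells were described across the 1 peak list of the study: CXXC5, TRIM8, KAZALD1, STX1A, DBP, SH3BGRL3, CSK and KIAA0513. The 8 genes were chosen by the signal of the peaks that lie on them, so every signal below describes them and is no evidence that they differ from other genes. Members of the description are the peaks that overlap the hg19 gene body or the 20 kb on either side of it, which gave 68 of the 20085 peaks in the list. NB4, a human cell line from an acute promyelocytic leukemia, expresses the fusion protein PML-RARA and was grown here with no treatment stated in the labels. An antibody named for PML-RARA was used in CUT&Tag, in which a transposase tethered to the antibody inserts sequencing adapters into nearby chromatin. The 2 replicates form 1 group. The authors merged them into 1 list, which gives a single value per peak, so replicate error is unknown and no test was made. No control antibody, second condition or RNA was analysed here, the depth is unknown, and the identity of the cell line could not be checked against marker genes.

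PML-RARA joins the nuclear body protein PML to the retinoic acid receptor alpha, RARA. RARA binds retinoic acid response elements, usually as a pair with an RXR receptor, and without its ligand it recruits co-repressors. The fusion keeps the DNA-binding domain of RARA, holds promyelocytes back from differentiation and is released from this action by all-trans retinoic acid. The 8 genes were grouped by the signal on them and not by function. They encode nuclear regulators (CXXC5, DBP, TRIM8), signalling and cytoplasmic proteins (CSK, SH3BGRL3), a syntaxin of vesicle fusion (STX1A), a secreted protein (KAZALD1) and a protein of poorly known function (KIAA0513). CXXC5, a zinc finger protein that binds unmethylated CpG DNA and is also called retinoid-inducible nuclear factor, is the member best known in myeloid cells and responds to retinoic acid there.

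The DNA before the start of CXXC5, KAZALD1, STX1A, DBP, SH3BGRL3 and KIAA0513 is shown because a peak lay at the 5′ end of each. CSK and TRIM8 also had such a peak, but the 1 start matched for CSK lies 6.46 kb inside the gene and none was matched for TRIM8. The sequences are from the RefSeq promoter table on GRCh38.p14 and hold the 250 bases before the outermost RefSeq start of each gene, written 5′ to 3′ along transcription: CXXC5 at chr5:139647049-139647298 and KAZALD1 at chr10:101061739-101061988 on the plus strand, STX1A at chr7:73719670-73719919 and DBP at chr19:48637380-48637629 on the minus strand, and SH3BGRL3 at chr1:26279836-26280085 and KIAA0513 at chr16:85027545-85027794 on the plus strand. Capitals mark 6-base matches on either strand to GGGCGG, the core bound by Sp1, to GAGGAA, a core bound by ETS factors such as PU.1, and to CACGTG, the E-box.
CXXC5: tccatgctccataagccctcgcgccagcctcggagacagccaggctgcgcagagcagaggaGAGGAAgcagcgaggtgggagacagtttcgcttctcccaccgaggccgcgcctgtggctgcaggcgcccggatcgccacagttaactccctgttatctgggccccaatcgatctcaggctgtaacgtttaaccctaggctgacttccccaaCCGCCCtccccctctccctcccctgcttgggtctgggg
KAZALD1: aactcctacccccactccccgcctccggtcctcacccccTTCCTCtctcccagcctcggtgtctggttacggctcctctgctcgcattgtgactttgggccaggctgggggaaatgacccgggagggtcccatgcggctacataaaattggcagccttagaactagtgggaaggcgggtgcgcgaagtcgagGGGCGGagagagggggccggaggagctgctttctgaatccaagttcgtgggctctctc
STX1A: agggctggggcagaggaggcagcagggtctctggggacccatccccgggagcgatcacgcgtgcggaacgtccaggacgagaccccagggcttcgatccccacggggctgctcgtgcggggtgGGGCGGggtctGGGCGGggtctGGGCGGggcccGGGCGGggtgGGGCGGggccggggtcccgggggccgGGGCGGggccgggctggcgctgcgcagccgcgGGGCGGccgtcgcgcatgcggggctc
DBP: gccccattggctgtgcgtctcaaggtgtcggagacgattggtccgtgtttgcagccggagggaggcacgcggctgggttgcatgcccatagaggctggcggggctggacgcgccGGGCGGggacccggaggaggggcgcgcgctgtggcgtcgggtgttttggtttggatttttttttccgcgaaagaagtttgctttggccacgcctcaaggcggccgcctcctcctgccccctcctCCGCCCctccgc
SH3BGRL3: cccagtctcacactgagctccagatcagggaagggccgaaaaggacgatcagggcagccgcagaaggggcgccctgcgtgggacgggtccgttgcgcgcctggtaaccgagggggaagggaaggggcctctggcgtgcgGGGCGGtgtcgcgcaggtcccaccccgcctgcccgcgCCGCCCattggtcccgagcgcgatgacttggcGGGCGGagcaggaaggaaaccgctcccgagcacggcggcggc
KIAA0513: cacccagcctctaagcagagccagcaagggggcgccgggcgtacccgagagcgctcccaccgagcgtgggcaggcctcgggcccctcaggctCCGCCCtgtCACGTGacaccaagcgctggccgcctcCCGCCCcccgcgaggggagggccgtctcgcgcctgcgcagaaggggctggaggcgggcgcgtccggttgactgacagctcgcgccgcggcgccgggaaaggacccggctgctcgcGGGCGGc
These GRCh38 positions were not converted to hg19, so the place of each sequence within its hg19 peak was not measured.

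All 6 sequences held GGGCGG, which was present in 42.6% of the 35116 RefSeq promoters of the same length. This and the other shares of all promoters include internal starts, while the 6 are outermost starts, so the 2 kinds are not fully alike. STX1A had 7 matches, SH3BGRL3 and KIAA0513 had 3 each, DBP had 2, and CXXC5 and KAZALD1 had 1 each. GAGGAA was present before CXXC5 and KAZALD1, in 2 of the 6, against 23.6% of all promoters, and CACGTG before KIAA0513 only, against 6.34%. None of the 6 held AGGTCA (12.1% of all promoters) or AGTTCA (8.80%), 2 forms of the retinoid receptor motif. Other forms of that motif were not searched. The D-box form TTACGTAA (0.105%), a palindrome that DBP itself binds, was also absent from the 6. At so low a share its absence from 6 says little, and other forms of the D-box were not searched. The 6 sequences were 62.4 to 80.8% G+C against a median of 58.0% in the table, with 14 to 33 CpG dinucleotides against a median of 11. STX1A had the highest G+C content and KAZALD1 the lowest. The table counts each start that it holds, which is not every start: it has none of TRIM8 and only an internal one of CSK. It holds 14 promoters of 7 of the genes, and 7 of the 14 are starts of CXXC5, so they do not weigh the genes equally. Over all 14, GGGCGG was present in 10 and GAGGAA in 6, where the shares of all promoters are 42.6% and 23.6%. G+C content ranged from 54.0 to 80.8%, and CpG dinucleotides numbered 2 to 33. Among the 14, direct repeats of AGGTCA or AGTTCA with spacings of 1, 2 or 5 bases were found in 0. These repeats are rare in all promoters (0.0399, 0.0057 and 0.0142%), so their absence from 14 says little about these genes. Single copies were found only before the start of CXXC5 that lies 28.1 kb inside the gene on GRCh38, which held both AGGTCA and AGTTCA. Such matches describe letters in a window and locate no binding.

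Both values per peak come from the authors' peak caller. The total signal is read here as the coverage summed over the bases of a peak, and the maximum signal as its highest point. Across the list the median peak was 893 bp long with a total of 6479 and a maximum of 22. Each of the 8 genes had its strongest peak in the top 1% of the list by total signal (8 of 8, where the background is 0.996% of all peaks); this is the property that chose the genes. Of these 8 peaks, 7 were also in the top 1% by maximum signal (background 1.02%), all but that of CSK. By total, 7 were in the top 0.5% (background 0.498%), all but that of KIAA0513. With peaks merged across gaps of at most 1 kb, 7 genes were in the top 1% by total (background 0.997%), again without KIAA0513. These counts are not independent of the choice of the genes, and the backgrounds cover all peaks. Strong peaks by total were also tall. The 59 peaks of the list with a total at least that of CSK had a median maximum of 261. The counts thus show no further property of the genes. The 8 strongest peaks did not all stand at the very top. The strongest peaks of DBP, CXXC5, SH3BGRL3, TRIM8, STX1A and KAZALD1 ranked 3, 4, 6, 7, 8 and 10 of the 20085, while that of CSK ranked 59 and that of KIAA0513 ranked 137. The totals of the first 6 spanned only 1.27-fold, and without replicate error neighbours in this order cannot be told apart. From DBP to KIAA0513 they spanned 3.10-fold.

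**Figure D1:**
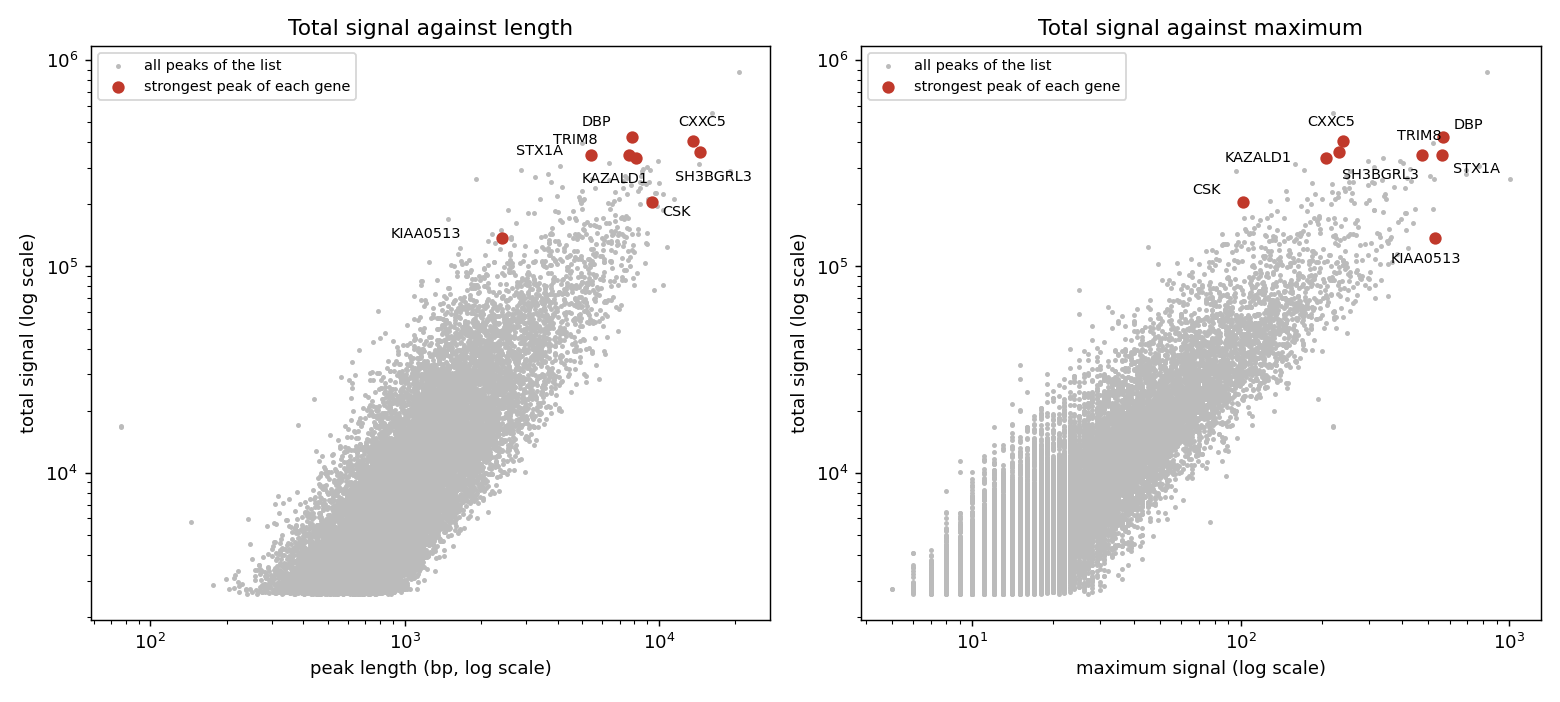
Total signal of each peak (vertical, log scale) against its length in bp (left, log scale) and its maximum signal (right, log scale). Grey points are the 20085 peaks of the list and red points the strongest peak of each gene; KIAA0513 lies to the left by length and to the right by maximum, with a length of 2424 bp and a maximum of 532.

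The strongest peaks differed in shape. Among the 6 whose totals spanned 1.27-fold, length varied 2.68-fold and the maximum 2.73-fold. Length varied 6.01-fold over the 8 strongest peaks, from 2424 bp at KIAA0513 to 14572 bp at SH3BGRL3, and the maximum varied 5.54-fold, from 102 at CSK to 565 at DBP. Tall peaks stood at DBP (maximum 565, rank 6 of the list), STX1A (564, rank 7), KIAA0513 (532, rank 8) and TRIM8 (473, rank 13). Lower peaks stood at CXXC5 (maximum 241, rank 119), SH3BGRL3 (232, rank 132) and KAZALD1 (207, rank 183), and that of CSK ranked 977. Signal per base put STX1A first with 63.8, followed by KIAA0513 with 56.7 and DBP with 54.3, and CSK last with 22.1, against a list median of 7.53. For comparison, the 59 peaks of the list with a total at least that of CSK had a median length of 7798 bp (1912 to 20718 bp). Their median maximum was 261 (96 to 1005) and their median signal per base 34.2. By maximum, CSK was thus near the lower end of these peaks. DBP, STX1A and TRIM8 were above their median maximum, and CXXC5, SH3BGRL3 and KAZALD1 were below it. By signal per base, CXXC5 (29.9), SH3BGRL3 (24.6) and CSK were below the median of 34.2, and the rest above it. The mean signal of the peak came to 0.216 of its maximum at CSK and 0.199 at KAZALD1, and to 0.0962 to 0.124 at the other 6. All 8 were below the list median of 0.345, but this ratio was not computed for the 59 peaks of like strength.

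**Figure D2:**
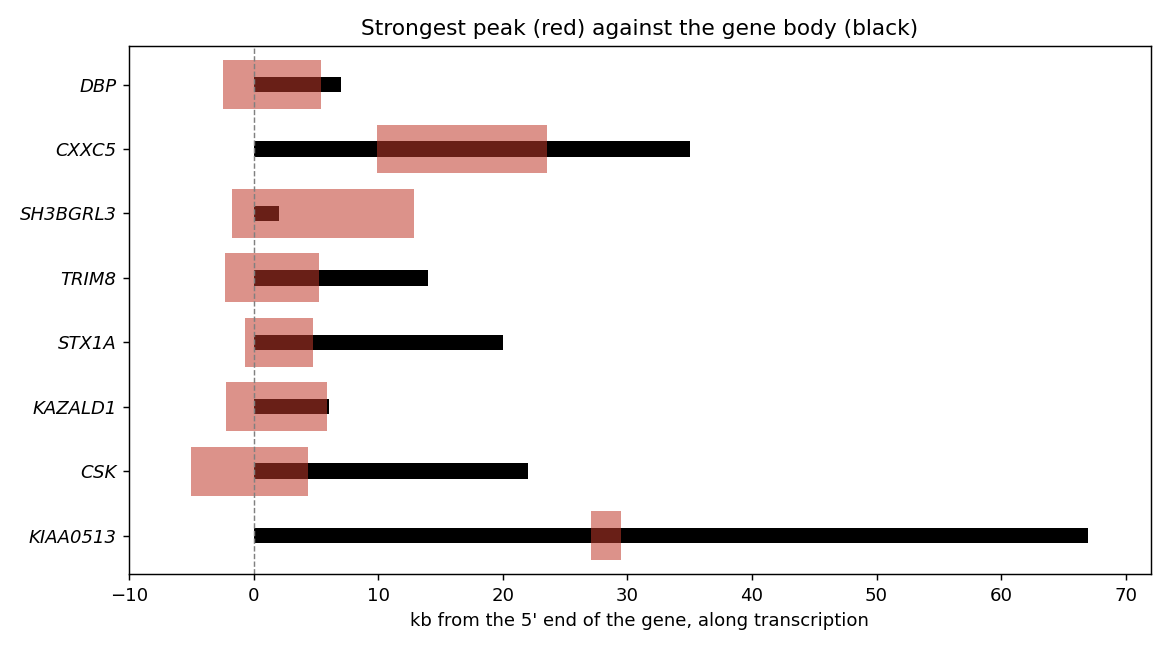
Position of the strongest peak (red) on each gene (black), in kb from the 5′ end along transcription. The red bars of 6 genes cross the 5′ end at 0; those of CXXC5 and KIAA0513 begin 9.93 and 27.1 kb inside the gene.

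All 8 genes had a peak within 2 kb of the hg19 5′ end, which is known here to the nearest kb. At 6 of them this was the strongest peak itself. At CXXC5 and KIAA0513 it was another, weaker peak, and the strongest one lay wholly inside the gene. The share of all genes with a peak that near the 5′ end was not measured, so the count of 8 is a description only. The 32 peaks that touch a gene body held 82.3% of the signal in the windows, and of the 36 peaks in the flanks alone 1 exceeded a total of 100000 (background 1.32% of all peaks). The 68 peaks together had a total of 3681150, which was 1.32% of the signal of the list in 0.339% of its peaks, and the 8 strongest held 69.7% of that.

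**Figure D3:**
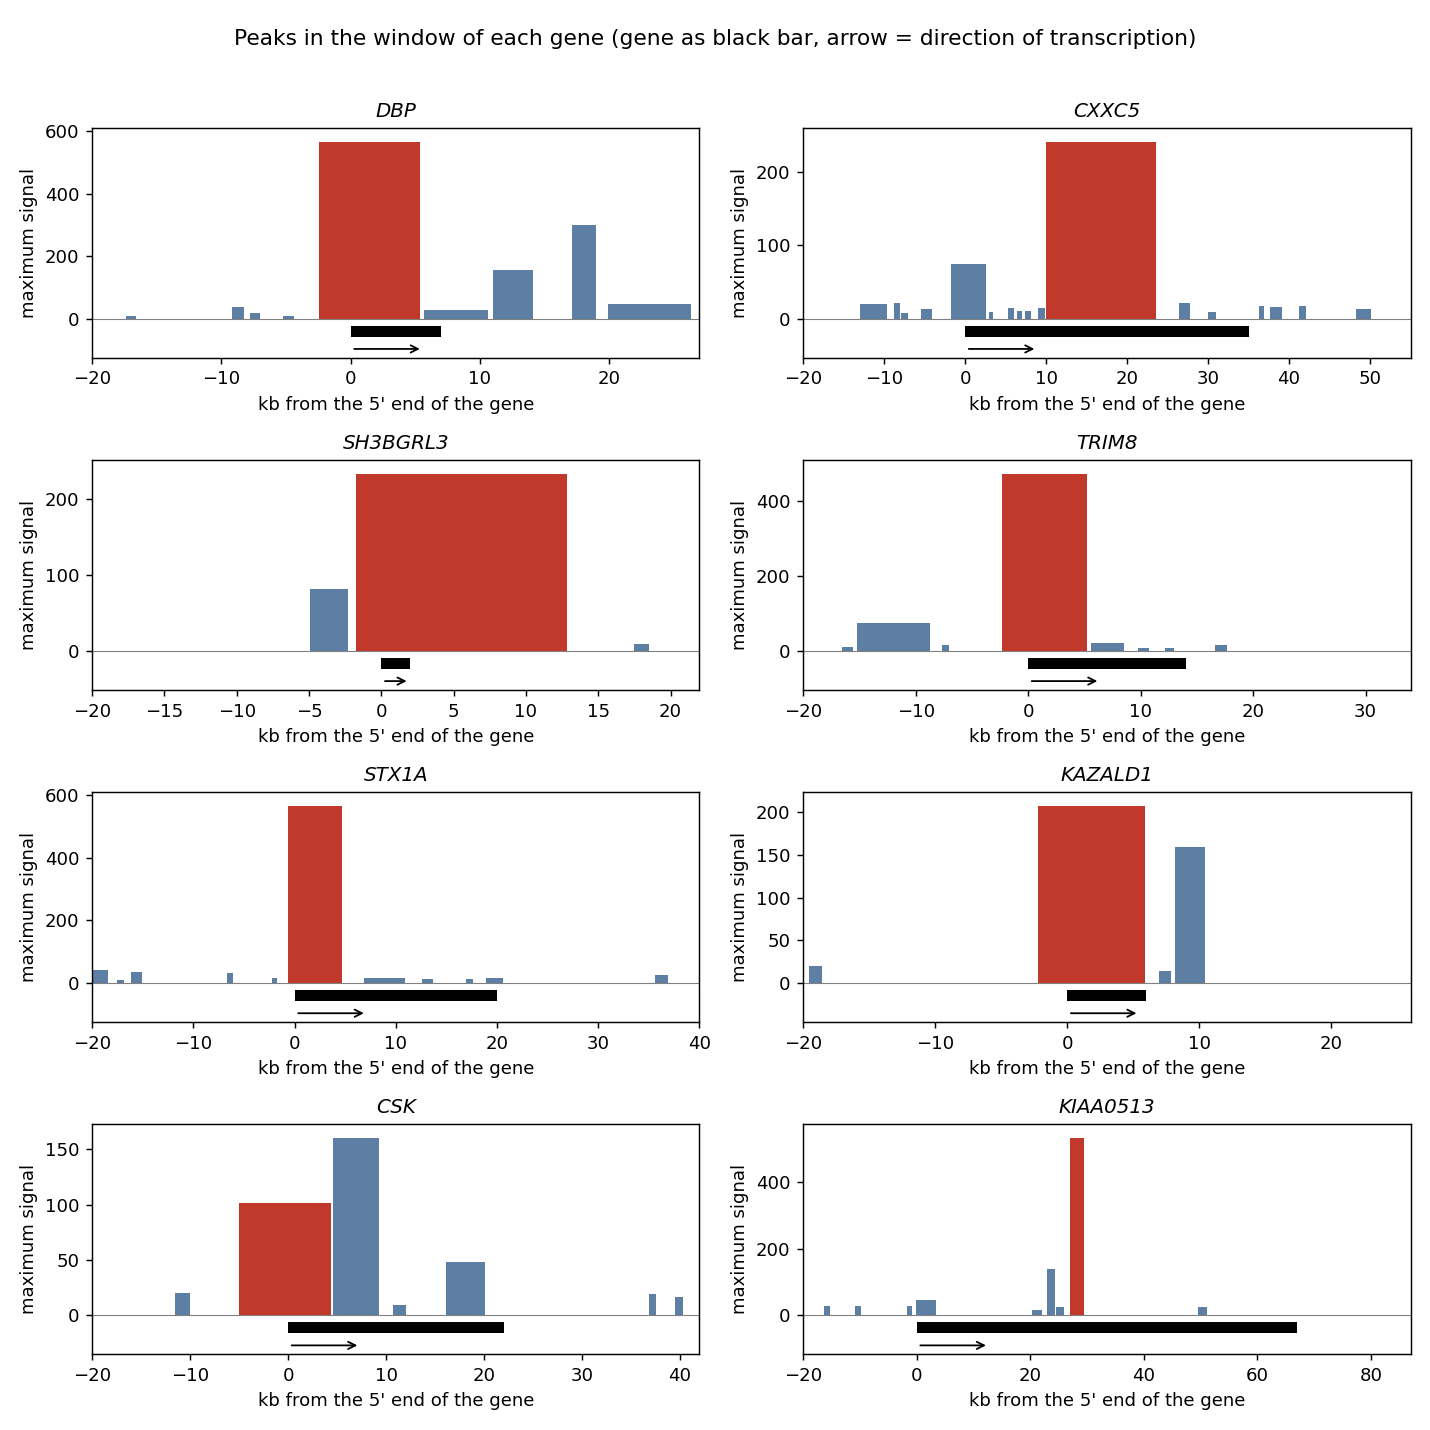
Peaks in the window of each gene, with the 20 kb on either side. Bars show the extent of each peak (horizontal, kb from the 5′ end along transcription) and its maximum signal (vertical, separate scale per gene), red for the peak with the highest total; the second CSK peak, with a maximum of 160, is taller than the red one with 102.

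Among the nuclear regulators, CXXC5 (chromosome 5, 139028 to 139063 kb, plus strand) had the most peaks, 17 in its 75 kb window. The strongest, at chromosome 5, 139037929 to 139051551, was 13622 bp long with a total of 406954. It lay 9.93 to 23.6 kb inside the gene, covered 38.9% of the gene body and was separated from the peak before it by 122 bp. The 5′ end lay in a peak at 139026298 to 139030601 with a total of 47904 and a maximum of 75 (rank 1004 by total), so the strongest peak was both longer and taller than the one at the 5′ end. Per base, the values were 29.9 inside the gene and 11.1 at the 5′ end. The next peaks, at 139014987 to 139018355 (total 19179) upstream and at 139076290 to 139078093 (total 10619) beyond the 3′ end, were far weaker. The 16 peaks other than the strongest had a median total of 5089, against 6479 in the list. The RefSeq promoter table holds 7 starts for CXXC5 on GRCh38, at up to 3.69 kb from the outermost for the first 5, then at 12.3 and 28.1 kb. They were not placed on hg19, so which of them the intragenic peak covers was not measured. By distance alone, only the start at 12.3 kb falls within the 9.93 to 23.6 kb of the peak, if both builds share the outermost start. Joining peaks with gaps of at most 10 kb gave 20 peaks over 76.8 kb, from 139014987 to 139091823; at DBP the same joining gave 21 peaks over 97.7 kb. The neighbouring protein-coding genes in the reference order are UBE2D2 before and PSD2 after it.

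DBP (chromosome 19, 49134 to 49141 kb, minus strand), a PAR bZIP factor of the circadian output, had the highest total of the 8 and the highest summed signal, 719732 in 9 peaks. Its strongest peak, at chromosome 19, 49135604 to 49143458, had a total of 426858 and covered 77.1% of the gene along with 2.46 kb before the 5′ end. Peaks covered 58.8% of its 47 kb window, the largest share among the 8, and the strongest peak held only 59.3% of the window's signal. The next strongest lay past the 3′ end: a total of 87397 with a maximum of 301 (rank 61) at 49122001 to 49123842, and 69140 at 49114620 to 49121084. The downstream neighbour in the reference order is SPHK2, a sphingosine kinase gene, and the upstream one CA11, a carbonic anhydrase relative. Which gene these peaks belong to was not tested.

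TRIM8 (chromosome 10, 104404 to 104418 kb, plus strand), a RING-type E3 ubiquitin ligase of the tripartite motif family to which PML also belongs, had 8 peaks in its window. Its strongest peak, at chromosome 10, 104401665 to 104409271, ran from 2.33 kb before the 5′ end to 5.27 kb inside the gene, with a total of 347586 and a maximum of 473. A second strong peak lay upstream, at 104388791 to 104395265, with a total of 105584 and a maximum of 76 (rank 232 by total). It was the only peak over 100000 in any flank and ended 8.73 kb before the 5′ end. The third was weaker, at 104409625 to 104412510 with a total of 22066, and began 354 bp after the strongest. SUFU, a regulator of Hedgehog signalling, is the upstream neighbour and ARL3 the downstream one.

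CSK (chromosome 15, 75074 to 75096 kb, plus strand) is the tyrosine kinase that switches off Src family kinases by phosphorylating their tails. Its strongest peak held the lowest share of a window's signal, just below the 52.9% of KIAA0513, and without replicate error these cannot be told apart. The strongest, at chromosome 15, 75068971 to 75078334, had a total of 206540 and a maximum of 102, held 52.2% of the window's signal, and lay from 5.03 kb before to 4.33 kb after the 5′ end. The next began 237 bp later, at 75078571 to 75083328, with a total of 136659 and a higher maximum of 160. The first exceeded the second only 1.51-fold. With peaks merged where gaps were at most 1 kb, they became 1 peak of 14357 bp with a total of 343199, which ranked 20 of 17149 merged peaks, close to the 335086 of KAZALD1. The window of CSK summed to 395616, and the merged peak of KIAA0513 held 137535 of 259897. After merging, CSK was thus no longer the member with the lowest share. A weaker one, at 75090139 to 75094090, had a total of 29481. CYP1A2 is the upstream and LMAN1L the downstream neighbour.

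SH3BGRL3 (chromosome 1, 26606 to 26608 kb, plus strand), a small protein with a thioredoxin-like fold, is the shortest of the 8 genes and lay under the longest of their strongest peaks. That peak, at chromosome 1, 26604268 to 26618840, covered the whole gene and ran on for 10.8 kb past its 3′ end, so 74.4% of it lay beyond the gene. Its total was 358310 and its maximum 232. The window held 2 others: an upstream peak at 26601044 to 26603706 with a total of 56691, which lay 562 bp from the strongest, and one of 4067. UBXN11 is the downstream neighbour and CEP85 the upstream one, and whether the downstream part of the peak belongs to UBXN11 was not tested.

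STX1A (chromosome 7, 73114 to 73134 kb, minus strand), a syntaxin of the SNARE complex best known from neurons, had a compact and tall peak. At chromosome 7, 73129273 to 73134701, it was 5428 bp long with a total of 346190 and a maximum of 564, and it covered the first 4.73 kb of the gene. It exceeded the second peak of the window 16.3-fold, the widest margin of the 8, and the 10 others had totals of 2941 to 21178 and maxima of at most 41. The 2 next strongest lay at 73152447 to 73154010, 18.4 kb before the gene (total 21178), and at 73123115 to 73127145 inside it (total 20667). ABHD11 and BUD23 are the upstream and downstream neighbours.

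KAZALD1 (chromosome 10, 102822 to 102828 kb, plus strand), a secreted protein with Kazal-type and immunoglobulin-like domains, was covered almost along its whole length. The strongest peak, at chromosome 10, 102819778 to 102827905, spanned 98.4% of the gene and 2.22 kb before it, with a total of 335086 and a maximum of 207. It held 84.5% of the signal of the 4 peaks in the window. The second lay beyond the 3′ end, at 102830178 to 102832399, with a total of 48683 and a maximum of 159 (rank 349), and the third, at 102802407 to 102803445, had 6995. SFXN3 is the upstream neighbour and TLX1, a homeobox gene, the downstream one.

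KIAA0513 (chromosome 16, 85061 to 85128 kb, plus strand) had the shortest of the 8 strongest peaks, which like that of CXXC5 lay wholly inside the gene. The strongest, at chromosome 16, 85088062 to 85090486, was 2424 bp long, lay 27.1 to 29.5 kb inside the gene and covered 3.62% of it. Its total was 137535, the lowest of the 8, while only DBP and STX1A had a higher maximum than its 532. Another narrow peak stood before it, at 85083981 to 85085294, with a total of 28247 and a maximum of 140. The 5′ end carried a peak at 85060896 to 85064341 with a total of 35619 and a maximum of 45, and its signal per base was 10.3 against the 56.7 of the strongest peak. All 9 peaks of the window were above the median total of the list. Peaks covered 14.1% of the window, the smallest share of the 8. The RefSeq promoter table has a second start of KIAA0513 on GRCh38, 35.4 kb from the first, which was not placed on hg19. ZDHHC7 and CIBAR2 are its neighbours.

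**Figure D4:**
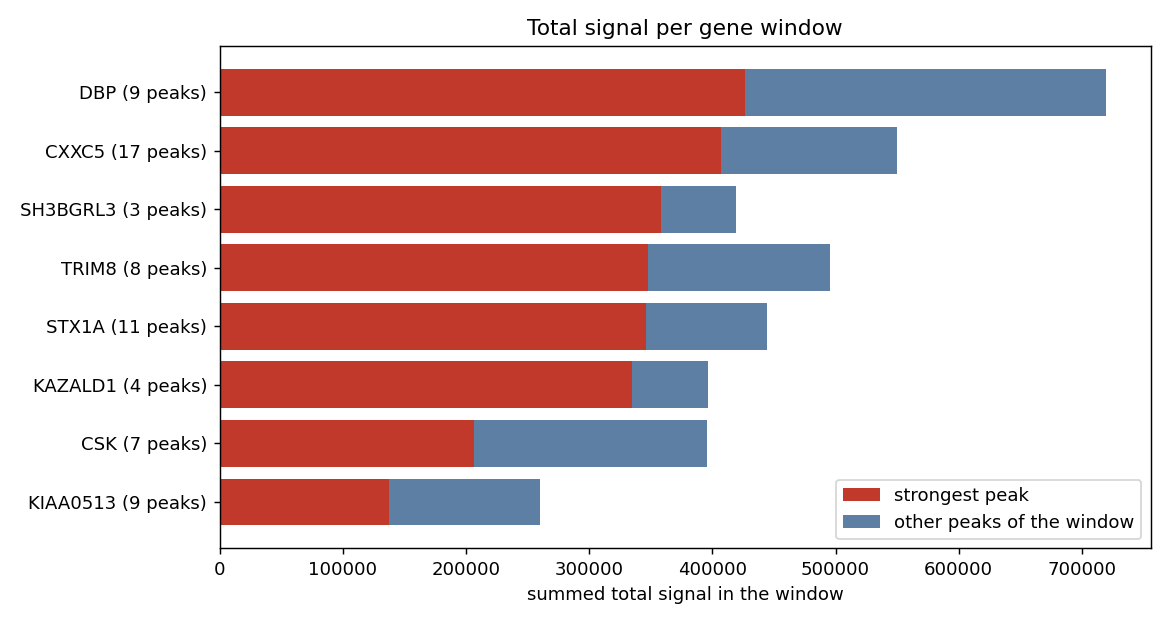
Summed total signal (horizontal) of the peaks in each gene window, with the strongest peak in red and the others in blue. DBP has the highest sum at 719732 and KIAA0513 the lowest at 259897, and the red part ranges from 52.2% of the sum at CSK to 85.5% at SH3BGRL3.

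Set side by side, the summed signal of the windows varied 2.77-fold and followed the order of the strongest peaks at 5 of 8 places; SH3BGRL3 moved from the third to the fifth place, below TRIM8 and STX1A. The 60 other peaks had a median total of 7567.5 against 6479 in the list, with a highest total of 136659 at CSK. Of the 68 peaks, 42 were above the list median and 26 at or below it. At 4 genes (CXXC5, DBP, TRIM8 and CSK) a further peak was listed within 500 bp of the strongest. The share of all peaks with a neighbour that close was not measured. Just inside the 20 kb limit lay peaks 18.4 kb from STX1A (total 21178) and 18.6 kb from KAZALD1 (6995), and just outside it peaks 20.3 kb from TRIM8 (4729) and 20.4 kb from DBP (3468), so the limit set aside no strong peak at its edge. Of 37 relatives of the members listed for comparison (other CXXC zinc finger proteins, PAR bZIP factors, Src family kinases, SNARE partners, SH3BGR proteins and partners of TRIM8), 0 had an hg19 position at hand, and their peaks were not analysed here.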

How the data were processed

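CUT&Tag libraries of NB4 cells were sequenced paired-end, per the labels' protocols. Trimmomatic, Bowtie2, SAMtools, bedtools and SEACR with build hg19 are named in the submitters' processing notes; for versions, thresholds, any control track and the way of merging: not given in the sources used here. In the deposited list are positions and 2 signal columns that the authors took from the peak caller. The column headed width is read as total signal, being larger than the peak's length in all 20085 rows and larger than length times maximum in 0, and the one headed peak as maximum signal; no scaling is stated, and starts may count from 0. Whether separate cultures gave the replicates is not stated.

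Gene positions in hg19 came with the choice of genes, to the nearest 1 kb; an overlap of 1 bp counted. Ranks run over all 20085 peaks, 13 of them on contigs. Members, lists, motifs and alternatives were chosen with earlier results of these data known. Named were the 8 genes, their strongest peak, the peak at the 5′ end, up to 2 further peaks, the peaks beside the 20 kb limit and the nearest protein-coding neighbours in the GRCh38.p14 RefSeq table (order only). Promoter sequences matched 7 of 8 symbols. Python 3.11.15, pandas 2.3.3 and matplotlib 3.10.9 were used, and overlap and motif counts were tested on simulated data.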

Additional observations from a re-analysis of the deposited data

How the results depend on the processing

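The number of peaks was 53 with windows of 10 kb, 107 with 50 kb, 32 with gene bodies alone, 42 with only peaks above the list median, and 46 after merging within 1 kb; it was 68 with 50% of the peak required inside. The share of the list's signal was 1.23% with 10 kb, 1.48% with 50 kb, 1.09% with gene bodies alone and 1.29% with peaks above the median. Of the 8 strongest peaks, 5 were in the top 1% by signal per base (background 0.996%) and 7 by maximum (1.02%). By total, 7 were in the top 0.5% (0.498%), and 7 in the top 1% after merging (0.997%), where KIAA0513 dropped to rank 179. All these counts rest on genes chosen by signal, so the backgrounds over all peaks are no fair comparison for them. The order of the genes kept 2 places by maximum, 1 by signal per base and 5 by summed window signal. A 5′ peak was found at all 8 within 1 and within 5 kb, with no share of all genes measured. Searching the whole promoter entry, chosen after seeing the data, left GGGCGG at 10 promoters and AGGTCA or AGTTCA at 1. No paired analysis was possible because the list carries no value per replicate, and leaving out a replicate was not possible for the same reason. Depth is unknown, so no counting error can be given.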
